A study of Mus musculus with 2 samples.

Results

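The genes described here serve the identity, lipid stores and hormones of adipocytes. They are 33 genes, listed by name for their known roles, though with earlier results of these data known, and all 33 were found among the 24421 gene symbols of the count table. By RNA-seq, the whole thickness of back skin was compared between stretched skin (1 library) and control skin (1 library). Stretched skin had been under strain for 5 days, from an initial strain of 33%, and control skin was non-stretched skin taken at day 5. Both came from wild type C57BL6/J mice, and the methods describe 8-week-old females whose hair follicles rested in telogen. A device glued to the back at its ends pulled on the skin between them, its strain was raised a little each day, and the glued skin was discarded at harvest. The labels describe the control as skin without strain and do not say whether a device was worn or how many mice gave each library. The library of control skin held 14152379 counts and that of stretched skin 11648655.

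Adipocytes of the skin lie in a white adipose layer under the dermis, which thickens and thins with the hair cycle. Such a cell takes up fatty acids and glucose, joins the fatty acids to a glycerol backbone as triglyceride and keeps it in a lipid droplet coated by perilipins. Lipases free the fatty acids again when catecholamines act on its adrenergic receptors. Pparg and Cebpa encode the transcription factors that hold this program in place, and adipocytes also release hormones such as adiponectin and leptin. Whole-layer skin further contains muscle, epidermis, sebaceous glands, vessels and immune cells, and several of the genes are also used there.

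Promoter windows from RefSeq on GRCm38.p6, the assembly called mm10, run from 250 bases before to 50 bases after a transcription start and were found for 23 of the 33 genes. The windows of 2 hormone genes and of 2 droplet coat genes are shown, because Adipoq, Lep and Plin1 were lower together in stretched skin whereas Plin2 was higher. Capitals mark matches, on either strand, to any of 5 short motifs. TATAAA stands for the TATA box and GGGCGG for the GC box. AGGTCA is the half-site bound by nuclear receptors such as the one Pparg encodes. TTNNGNAA is the core of the sites of the C/EBP family, to which Cebpa belongs. The last of the motifs is CCAAT, the letters of a common promoter box. No matches overlapped each other in these 4 windows.
Adipoq (chr16:23146286-23146585, plus strand): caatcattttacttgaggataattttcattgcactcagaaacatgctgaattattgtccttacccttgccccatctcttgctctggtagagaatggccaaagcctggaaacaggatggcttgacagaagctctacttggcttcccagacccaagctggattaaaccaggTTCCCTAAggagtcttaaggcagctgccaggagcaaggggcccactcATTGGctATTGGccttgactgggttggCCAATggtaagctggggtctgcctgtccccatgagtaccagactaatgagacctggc
Lep (chr6:29059971-29060270, plus strand): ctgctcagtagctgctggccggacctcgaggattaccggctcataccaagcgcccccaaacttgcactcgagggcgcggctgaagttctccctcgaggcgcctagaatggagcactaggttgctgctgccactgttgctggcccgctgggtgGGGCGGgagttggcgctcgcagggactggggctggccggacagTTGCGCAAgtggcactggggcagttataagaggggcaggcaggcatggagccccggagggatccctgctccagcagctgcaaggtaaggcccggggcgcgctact
Plin1 (chr7:79732727-79733026, minus strand): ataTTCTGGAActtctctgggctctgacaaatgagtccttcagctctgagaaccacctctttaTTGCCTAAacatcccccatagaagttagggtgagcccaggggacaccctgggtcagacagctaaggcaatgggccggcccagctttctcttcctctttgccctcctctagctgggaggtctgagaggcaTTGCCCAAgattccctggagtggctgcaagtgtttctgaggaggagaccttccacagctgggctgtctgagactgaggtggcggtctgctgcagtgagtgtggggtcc
Plin2 (chr4:86670010-86670309, minus strand): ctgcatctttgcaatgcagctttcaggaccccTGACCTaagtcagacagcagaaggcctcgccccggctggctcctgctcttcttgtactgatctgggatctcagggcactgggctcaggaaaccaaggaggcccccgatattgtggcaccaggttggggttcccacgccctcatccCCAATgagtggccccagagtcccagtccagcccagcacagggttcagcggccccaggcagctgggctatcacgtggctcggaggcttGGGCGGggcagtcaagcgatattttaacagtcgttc
The window of Plin1 held 3 C/EBP cores and no other match, and that of Lep held a C/EBP core and a GC box. The window of Adipoq held 3 copies of CCAAT and a C/EBP core. That of Plin2 held a half-site, 1 copy of CCAAT and a GC box. As the 4 genes were picked by direction, their matches were not compared by direction. Over all 32851 windows in the RefSeq table, 40.7% held a C/EBP core, and among the 31 windows of the listed genes 10 did. The half-site was found in 16.3% of all windows and in 11 of these 31, some of which overlap because a gene has several starts. A match is a stretch of letters and not a measured binding site.

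Most of the adipocyte genes were lower in stretched skin. Of the 33 genes, 32 were above 3 counts in one library or both, and 28 of these were lower and 4 higher in stretched skin, where 61.5% of all measured genes were lower. Their median log2 fold change, the ratio of CPM (counts scaled to the total of the library) under stretch to that in the control, was -0.61, beside a median of -0.12 over all 16255 genes above 3 counts. The values ran from -1.32 for Slc2a4 to 0.96 for Cidea. Most single differences were less than 2-fold, as the plot of fold changes shows.

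**Figure D1:**
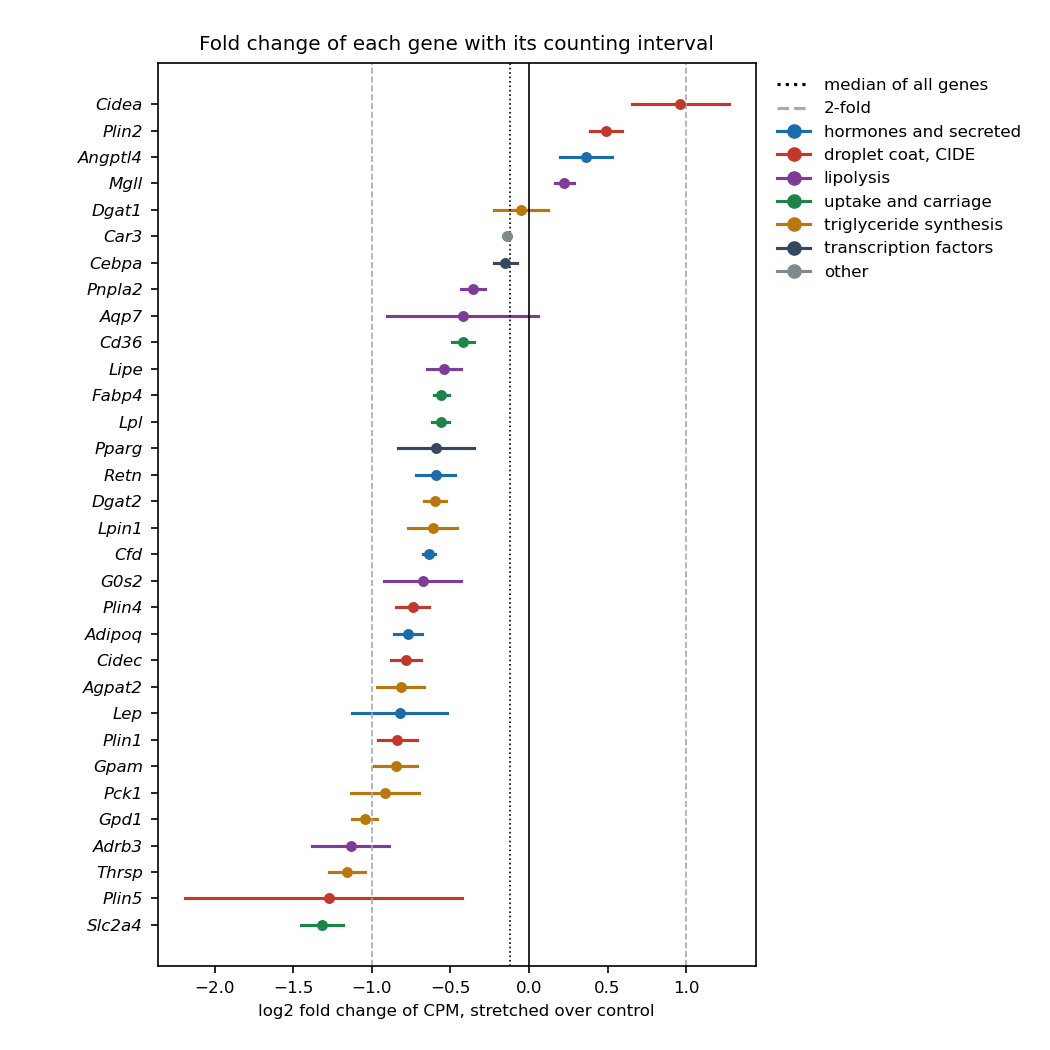
Log2 fold change of CPM (stretched over control, horizontal axis) for the 32 adipocyte genes above 3 counts, with exact 95% counting intervals as bars and colours for roles. The genes lie mostly between the dotted median of all genes (-0.12) and the dashed 2-fold line, and only Cidea, Plin2, Angptl4 and Mgll have intervals wholly above 0.

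An exact 95% interval (Clopper-Pearson) gives the counting error of each ratio, and it compares these libraries and not the conditions, since neither has a replicate. The interval lay wholly below 0 for 26 of the 32 genes, against 33.5% of all measured genes, and wholly above 0 for 4, against 18.1% of all measured genes. It included 0 for Dgat1 and Aqp7. Among well counted genes, those whose summed count reached 100, the interval lay below 0 for 25 of 31 adipocyte genes, against 40.2% of 12740 genes in all. The study asked that the product of both FPKM values exceeds 10 and that they differ 2-fold or more. By these thresholds, with 1 added to each FPKM in this work, 3 of the 30 genes that passed the filter were called lower and 0 were called higher. Over all genes that passed it, 2.43% were called lower and 2.61% higher. The 3 genes were Slc2a4, Thrsp and Gpd1. Adrb3 lay just outside with a ratio of 0.502, and Gpd1 just inside with 0.489. With 0 added to FPKM, Adrb3 was called too. Under each of the other 4 ways of scaling the libraries Gpd1 was no longer called. In whole skin, fewer adipocytes and less of these RNAs per adipocyte cannot be told apart.

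The labelled tissue held adipocyte transcripts in both libraries. Per length of merged exons, on the FPKM scale, Cfd was highest in control skin (1353 FPKM), followed by Car3 (717), Adipoq (155) and Fabp4 (144). The merged exons of Fabp4 take up 4489 bases, the whole span of the gene, so its place in this order depends on that length. In CPM, Fabp4 was above Adipoq in control skin (646 and 214) and in stretched skin (439 and 126). The lowest genes with counts were Plin5 (1.59 FPKM), Aqp7 (2.47) and Lep (6.15). In stretched skin Cfd, Car3, Fabp4 and Adipoq again had the highest FPKM, at 871, 651, 97.8 and 91.1, with Fabp4 slightly above Adipoq on this scale too. The plot of levels shows that the range between genes was far wider than the difference between libraries for any of them.

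**Figure D2:**
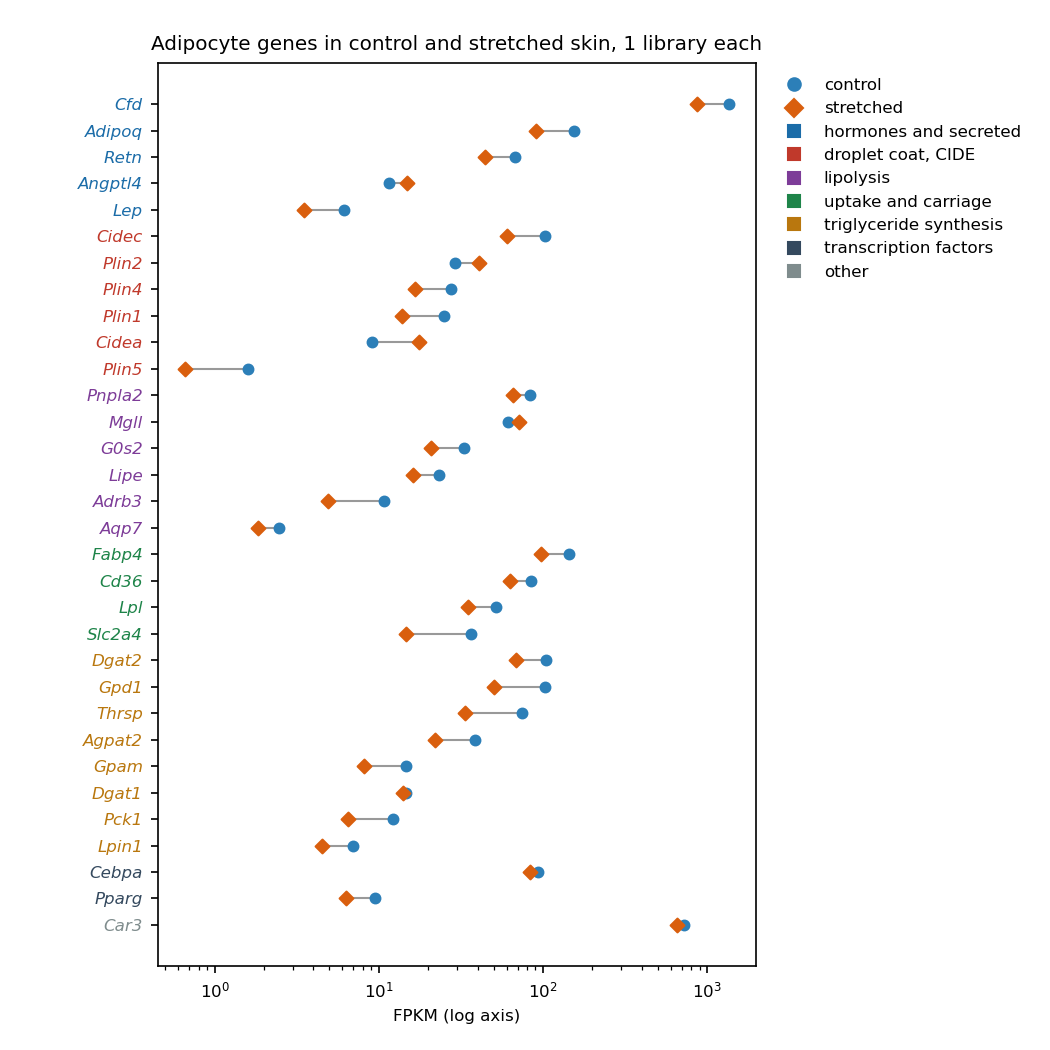
Level of each of the 32 adipocyte genes on a log axis of FPKM, with a circle for control skin and a diamond for stretched skin (1 library each, no error bars). The diamond lies left of the circle for all genes except Angptl4, Plin2, Cidea and Mgll, and levels span from under 1 FPKM for Plin5 in stretched skin to 1353 for Cfd in control skin.

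Among the hormones and secreted proteins, the classical adipocyte products were lower and Angptl4 was higher. Adipoq, which encodes adiponectin, is found in mm10 on chromosome 16 from 23146536 to 23158028. It had 3035 counts in the control and 1466 under stretch (log2 fold change -0.77, interval -0.86 to -0.68). Lep, which encodes the satiety hormone leptin, had 292 and 136 counts (-0.82, interval -1.13 to -0.52). The ratio of Lep to Adipoq was therefore close in both libraries, 0.0962 and 0.0928. Cfd, the gene of adipsin, a serine protease of the alternative complement pathway, had 17657 and 9353 counts (-0.64), and Retn, the gene of resistin, had 1504 and 820 (-0.59). Within the libraries, the ratios of Cfd and Retn to Adipoq were higher in stretched skin. Angptl4, whose product inhibits lipoprotein lipase and is induced by fasting and hypoxia, had 575 counts in the control and 609 under stretch (0.36, interval 0.20 to 0.53). The ratio of Angptl4 to Lpl counts was 0.0754 in the control and 0.143 under stretch.

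The genes of lipid droplet proteins went apart. Plin1 encodes the perilipin that covers the large droplet of fat cells and gates its lipolysis. It is found on chromosome 7 from 79720218 to 79732903. It had 1639 counts in the control and 755 under stretch (-0.84, interval -0.96 to -0.71). Plin4, another coat gene of white adipocytes, had 2255 and 1112 counts (-0.74, interval -0.84 to -0.63). Plin2, a coat gene active in most cells that hold small droplets, went the other way, with 1452 and 1676 counts (0.49, interval 0.39 to 0.59). It lies on chromosome 4 from 86648386 to 86670060. The ratio of Plin2 to Plin1 counts, which does not depend on how the libraries are scaled, was 0.886 in the control and 2.22 under stretch (log2 change 1.33, Wald interval 1.16 to 1.49). Of the summed FPKM of the 4 perilipin genes listed, Plin2 made up 35.1% in control skin and 56.8% in stretched skin. Plin5, the perilipin of oxidative tissues, was measured on few counts (47 and 16) and had a wide interval (-2.19 to -0.43).

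The same division was seen in the CIDE genes, whose products help droplets to fuse and grow. Cidec had 2715 counts in the control and 1298 under stretch (-0.78, interval -0.88 to -0.69). Cidea had 143 and 229 counts and the largest positive log2 fold change of the adipocyte genes (0.96, interval 0.65 to 1.27). Among all measured genes, 93.4% had a lower fold change than Cidea. Cidec was still the higher gene per length in both libraries, with 103 FPKM in the control and 60.0 under stretch, against 9.06 and 17.6 for Cidea. The plot of the 3 families shows Plin2 and Cidea above their control levels beside lower partners.

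**Figure D3:**
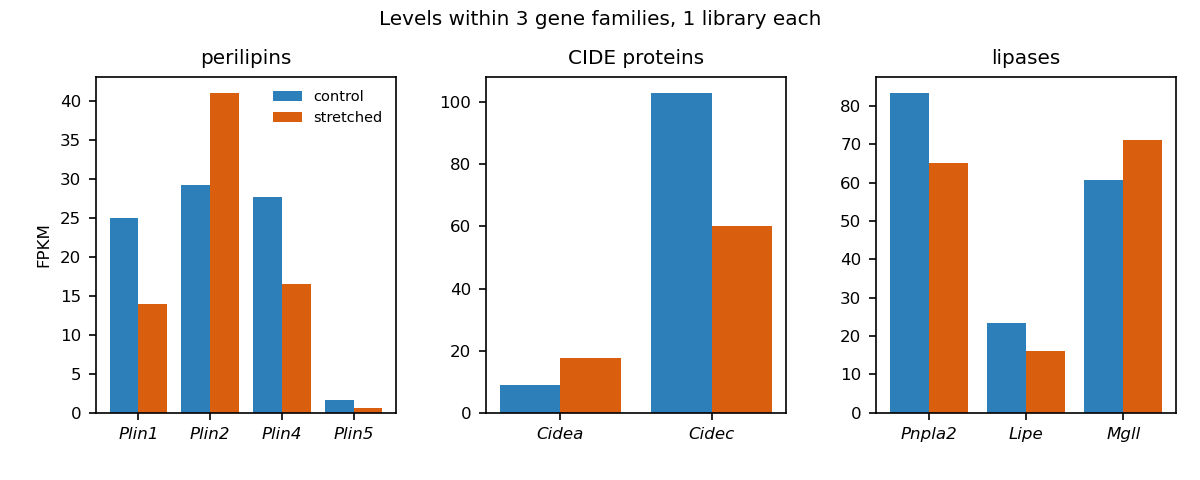
FPKM (vertical axes, from 0) of perilipin, CIDE and lipase genes in control and stretched skin, 1 library each and no error bars. Plin2, Cidea and Mgll have the taller bar in stretched skin, and the other genes of their families have the shorter one.

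Of the genes of lipolysis, that of the receptor had the lowest log2 fold change and that of the last lipase was slightly higher in stretched skin. Adrb3 encodes the beta-3 adrenergic receptor, through which catecholamines start lipolysis in rodent fat cells. It had 515 counts in the control and 193 under stretch (-1.14, interval -1.38 to -0.89). An antisense gene covers 24.9% of its exonic bases, and reads of both genes may not have been told apart there. The enzymes act in order on triglyceride, diglyceride and monoglyceride. Pnpla2, the gene of the first lipase (ATGL), had 3563 and 2294 counts (-0.35, interval -0.43 to -0.28), and Lipe, the gene of hormone-sensitive lipase, had 1949 and 1102 (-0.54, interval -0.65 to -0.43). An antisense gene covers 15.6% of the exonic bases of Lipe. Mgll, the gene of monoglyceride lipase, had 4370 and 4202 counts (0.22, interval 0.16 to 0.29). The ratio of Mgll to Lipe counts was 2.24 in the control and 3.81 under stretch. G0s2, whose product inhibits ATGL, had 408 and 210 counts (-0.68), and its ratio to Pnpla2 was 0.115 and 0.0915. Aqp7, the channel through which glycerol leaves the cell, had 99 and 61 counts, and no difference could be detected with so few (-0.42, interval -0.90 to 0.06).

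All 4 genes of uptake and carriage were lower. Slc2a4, the gene of the insulin-regulated glucose transporter GLUT4, had the largest negative value of all the adipocyte genes, with 1805 counts in the control and 597 under stretch (-1.32, interval -1.45 to -1.18). Only 3.08% of measured genes had a lower fold change. GLUT4 also serves skeletal muscle, and markers of muscle are given further on. Lpl, the gene of the lipase that frees fatty acids from lipoproteins, had 7624 and 4254 counts (-0.56). Fabp4, a carrier of fatty acids in the cytosol, had 9146 and 5115 (-0.56), and Cd36, a fatty acid transporter of many cell types, had 4280 and 2634 (-0.42). Lpl and Fabp4 had the same value within their intervals (-0.62 to -0.51 and -0.61 to -0.51).

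The 8 genes of triglyceride synthesis and of its glycerol backbone had the lowest median of the larger roles (-0.83), and all 8 values were negative. Gpd1, which makes glycerol 3-phosphate from a glycolytic intermediate, had 4328 counts in the control and 1726 under stretch (-1.05, interval -1.13 to -0.96). An antisense gene covers 13.0% of its exonic bases. Pck1, the gene of the enzyme that supplies the backbone from smaller precursors, had 593 and 259 counts (-0.91). The first steps of esterification were also lower, with 1381 and 632 counts for Gpam (-0.85), 1163 and 543 for Agpat2 (-0.82) and 947 and 510 for Lpin1 (-0.61). The last step is made by either of a pair of unrelated enzymes, and their genes differed. Dgat2 had 4553 and 2472 counts (-0.60, interval -0.67 to -0.53), whereas Dgat1 had 633 and 503 (-0.05, interval -0.22 to 0.12), a value whose sign changed with each other scaling. The ratio of Dgat1 to Dgat2 counts was 0.139 in the control and 0.203 under stretch. Thrsp, a lipogenic gene that responds to thyroid hormone and carbohydrate, had 2301 and 850 counts (-1.16, interval -1.27 to -1.04) and was called lower like Gpd1.

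Of the transcription factors, Pparg lay near the median of the adipocyte genes and Cebpa near the median of all genes. Pparg had 399 counts in the control and 218 under stretch (-0.59, interval -0.84 to -0.35). Cebpa, which keratinocytes and sebocytes also use, had 3460 and 2566 counts (-0.15, interval -0.22 to -0.08). With TMM scaling its interval included 0. Car3, a carbonic anhydrase abundant in fat and in slow muscle, had 29092 and 21729 counts (-0.14, interval -0.17 to -0.11) and thus differed far less than Adipoq. Ucp1, the uncoupling protein that marks brown and beige adipocytes, had 0 counts in both libraries, which allows up to 0.212 CPM in control skin and 0.258 CPM in stretched skin.

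Ratios to Adipoq within each library do not depend on scaling and show how alike the genes differed. Of 31 genes, 12 had a change of the ratio whose Wald 95% interval included 0, namely Lep, Plin1, Plin4, Plin5, Cidec, Pparg, G0s2, Agpat2, Aqp7, Lpin1, Pck1 and Gpam. Several of these rest on few counts, and an interval that includes 0 does not show that a ratio was equal. For 15 genes the ratio was higher in stretched skin, and for 4 it was lower. Only 9.16% of measured genes had a lower log2 fold change than Adipoq, so that most genes of any kind had a higher ratio to it. The 4 were Adrb3, Slc2a4, Gpd1 and Thrsp. Among the 15 were Retn, Cfd, Fabp4, Lpl, Lipe, Dgat2, Pnpla2, Cd36, Cebpa and Car3, which were lower in stretched skin by less than Adipoq. The others were Dgat1, whose own interval included 0, and the 4 genes that were higher.

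Other genes of adipocytes, also listed with earlier results known, had a median nearer to 0, and 20 of 24 were lower, beside the 61.5% of all measured genes. The 24 other genes of mature adipocytes had a median log2 fold change of -0.26, with 12 intervals wholly below 0, 3 wholly above and 9 that included 0, beside 33.5% below and 18.1% above over all genes. Their summed level was slightly higher, at 2399 CPM in the control and 2517 under stretch. None of the 20 that passed the filter was called, whereas 2.43% of all genes that passed it were called lower and 2.61% higher. The lowest was Lgals12, a galectin of the adipocyte droplet, with 536 and 230 counts (-0.94), and Acsl1, which activates fatty acids, had 4344 and 2226 (-0.68). Higher were Hp (0.56), Cav1 (0.48) and Cavin1 (0.35), of which the caveolar genes Cav1 and Cavin1 also serve vessels and muscle. Bmp2, which encodes a signal that holds follicles in telogen, had 304 and 186 counts (-0.43, interval -0.70 to -0.16).

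The 8 genes of fatty acid synthesis had a median of -0.61, the value nearest to that of the listed adipocyte genes, and 7 intervals lay below 0. Fasn, the fatty acid synthase, was called lower, with 25685 and 10498 counts (-1.01, interval -1.04 to -0.98). It lay just inside with a ratio of 0.4996 and was not called under any of the other 4 scalings, while Elovl6 was slightly higher (0.18). Of the 14 other genes of lipolysis and the insulin response, 6 intervals lay below 0 and 2 above, with a median of -0.24, shares near those of all genes. Prkar2b, a regulatory subunit of the kinase that acts on Lipe and Plin1 products, had 539 and 276 counts (-0.68). Hilpda, which encodes an inhibitor of ATGL that is induced by hypoxia, had 149 and 196 counts (0.68, interval 0.36 to 0.99). Of the 15 other transcription factors of adipogenesis, 8 intervals lay below 0 and 3 above, with a median of -0.21, again beside 33.5% and 18.1% of all genes. Klf15 had 365 and 163 counts (-0.88) and Mlxipl, which encodes the carbohydrate sensor ChREBP, had 679 and 303 (-0.88). Zfp423, a determinant of preadipocytes, had 176 and 213 counts (0.56).

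Genes of adipocyte precursors did not share the direction of the mature genes. The 11 genes had a median of 0.18, with 7 intervals above 0 and 3 below, against 18.1% and 33.5% of all measured genes. Pi16, a marker of fascial progenitor fibroblasts, was called higher, with 2947 and 4980 counts (1.04, interval 0.97 to 1.10). Of all genes that passed the filter, 2.61% were called higher. Ly6a, which encodes Sca-1, had 3414 and 5237 counts (0.90) and was called higher only with the DESeq2 size factors, and Pdgfrb had 1166 and 1828 (0.93). Dlk1, the preadipocyte factor Pref-1, had 72 and 130 (1.13, interval 0.71 to 1.57). Dpp4 (-0.09) did not differ beyond its interval (-0.22 to 0.05), and Dact2 was lower (-0.83). Fibroblasts of the dermis also express most of these genes.

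**Figure D4:**
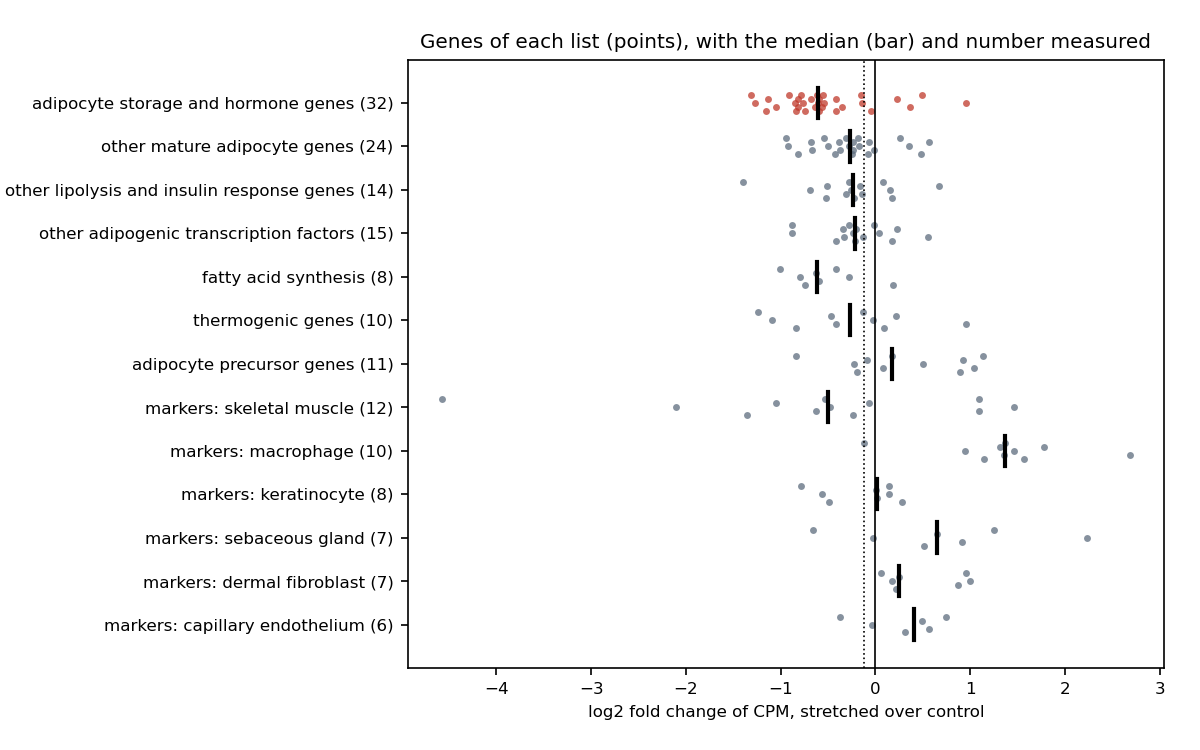
Log2 fold change of CPM (horizontal axis) of each gene above 3 counts in 13 lists, with the median of a list as a bar, the number of genes in brackets, and the median of all genes as a dotted line. The adipocyte genes and fatty acid synthesis have the lowest medians (-0.61 each), and the macrophage markers have the highest (1.37).

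Markers of other cells differed between the libraries too, and their part in the adipocyte values was not tested. No marker on these lists was at 0 in either library. Over all measured genes 61.5% were lower. Of the 10908 genes that passed the filter, 2.43% were called lower and 2.61% higher. Of 12 skeletal muscle markers, 9 were lower and 3 higher, with a summed level of 34111 CPM in the control and 24016 under stretch and a median of -0.50. By the thresholds given above, Myh4 (-4.57), Pvalb, Atp2a1 and Ckm among them were called lower and Myh2 (1.46), Myh1 and Mb higher, though Ckm was called only with totals and under none of the other 4 scalings. Of 10 macrophage markers, 9 were higher, and their sum was 802 and 1940 CPM (median 1.37). Fcgr1 was the highest (2.68) and Mertk the lowest (-0.12), and Adgre1, C1qa, C1qb, Cd14, Cd68, Csf1r, Lyz2 and Fcgr1 were called higher, to which 3 of the other 4 scalings added Mrc1. Of 7 sebaceous gland markers, 5 were higher, with sums of 158 and 240 CPM (median 0.65). Scd3, a desaturase gene of sebocytes, had 163 and 631 counts (2.23), and Awat1, a wax synthase gene, had 140 and 275 (1.25), and both were called higher, while Mc5r was lower (-0.66). The 8 keratinocyte markers ran from -0.79 for Dsg3 to 0.28 for Krt14, with a median of 0.01 and sums of 15601 and 16249 CPM. The 6 capillary markers ran from -0.37 for Kdr to 0.74 for Tie1, with a median of 0.40 and sums of 207 and 268 CPM. All 7 dermal fibroblast markers were higher, with sums of 41296 and 77480 CPM and a median of 0.25. The lowest was Dcn (0.06), and the highest, Col1a1, had 168121 and 277385 counts and was the only one called, although Col3a1 was called higher too under each of the other 4 scalings.

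The listed adipocyte genes were also divided by use elsewhere. The 14 genes listed as also used by muscle, macrophages, capillaries or sebaceous glands had a median of -0.58, and 12 were lower. The 18 measured genes outside that group, among them Adipoq, Lep, Plin1, Cidec and Lipe, had a median of -0.72, and 16 were lower. Cebpa was left among these although sebocytes use it, and without it the median of the other 17 was -0.77 and 15 were lower. These counts stand beside the 61.5% of all measured genes that were lower. Plin2 and Cidea, which were higher, are used by sebaceous glands, and Plin2 also by macrophages. Mgll and Angptl4, the other 2 higher genes, were among the 18. The division was drawn from general knowledge, and whether other cells of the skin also use genes among the 18 was not tested. The 6 adipocyte markers Adipoq, Plin1, Cidec, Lipe, Fabp4 and Pparg summed to 1334 CPM in the control and 855 under stretch, with all 6 intervals below 0, against 40.2% of all well counted genes. Fabp4 and Pparg are among the 14 genes with use elsewhere.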

How the data were processed

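RNA of whole-layer skin was sequenced as single-end reads of 76 bases, filtered on base quality and aligned with TopHat2 to mm10. What the authors deposited is a raw count for each gene symbol, and the program that made the counts is not given in the sources used here. Every deposited value was a whole number, and no column of another sample was present.

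CPM was taken over the library total, and FPKM with the union of each gene's exons in GENCODE M21, on the same build, found for 98.5% of genes. Of the genes on the lists, Cavin1, Cavin2, Trarg1 and Angptl8 stand under older symbols. Counts under 3 were raised to 3 in single ratios, which makes those ratios bounds. Intervals are Clopper-Pearson (exact, 95%) for the stretched share of a gene's counts, or Wald intervals of log ratios between 2 genes. They cover counting error only. With 1 library per condition there was no test and no p-value.

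The genes and lists were chosen with earlier results of these data known. All 33 listed genes are named. Of the other lists, those named are the largest rise and fall among genes that reach 100 counts in sum, called genes and a few whose role is stated. Calls and intervals were first run on simulated counts. These held counting error only, so they cannot show how far libraries of the same condition differ. Alternatives to scaling by totals were the upper quartile, TMM in edgeR 4.0.16, size factors of DESeq2 1.42.0 and totals that omit the 50 most counted genes, as were other pseudocounts, filters, lengths and subsets. Software was R 4.3.3, Python 3.11.15, scipy 1.17.1, pandas 2.3.3, numpy 2.4.6 and matplotlib 3.10.9.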

Additional observations from a re-analysis of the deposited data

How the results depend on the processing

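The scaling alternatives added one shift to every log2 fold change, namely 0.06 for totals that omit the 50 most counted genes, 0.10 for upper quartile, 0.10 for TMM and 0.11 for the DESeq2 size factors. Under these 4 the median of the adipocyte genes ran from -0.54 to -0.50, and the number of genes with an interval below 0 was 25 or 26, since Cebpa was lost with 3 of them. It was -0.60 with 1 CPM added, -0.60 without Adrb3, which shares 16.4% of its 76-base stretches with its antisense gene, and -0.72 over the genes not listed as used by other cell types, or -0.77 when Cebpa, which sebocytes use, was left out of them after seeing the data. The filters on low counts left it at -0.61. The number of genes called lower was between 2 and 4 in 11 alternatives, with Slc2a4 and Thrsp called in each. Gpd1 was lost under all 4 scalings and with an interval wholly past 2-fold, and of the other lists Fasn, Cox7a1 and Ckm were lost under all 4 scalings, whereas Col3a1 was gained under all 4, Mrc1 under 3 and Ly6a with the DESeq2 size factors. Adrb3 was called with 0.1 or 0 added to FPKM, with CPM in place of FPKM and with the length of the longest transcript. None of the 33 adipocyte genes was called higher under any of these 11. Of 128 values of single genes under the scalings, which were added after seeing the data, 45 moved beyond their interval, and only Dgat1, whose interval included 0, changed sign. Of 88 medians of the lists, 36 moved and none changed sign. No paired analysis was possible because each condition has a single library, which also could not be left out. Depth limits Plin5, Aqp7 and Ucp1 most.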

Other observations

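Genes of thermogenesis were mixed. Of 10 measured genes, which include Cidea, 5 intervals lay below 0 and 1 above, against 33.5% and 18.1% of all measured genes, with a median log2 fold change of -0.27. The median rests in part on Otop1, which had 4 and 1 counts and whose ratio is a bound, and it was -0.41 over the 9 genes with at least 3 counts in each library, an alternative chosen after seeing the data. Ppargc1a, which encodes a coactivator of mitochondrial genes in brown fat and muscle, had 123 counts in the control and 43 under stretch (-1.24, interval -1.77 to -0.72). Cox7a1, a subunit gene of cytochrome oxidase in brown fat, heart and muscle, was called lower, with 225 and 87 counts (-1.09, interval -1.46 to -0.73), but under none of the other 4 scalings. Of all genes that passed the filter 2.43% were called lower, and 4 of the thermogenic genes passed it. Dio2, which activates thyroid hormone, had 82 and 72 counts, and no difference could be detected at this depth (0.09, interval -0.38 to 0.57). Cidea was therefore the only one of these genes with an interval above 0, in skin where Ucp1 had no counts.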
